A study of Mus musculus with 15 samples.

Results

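The Hox genes of the 4 mouse clusters were followed through 15 arrays of newborn cerebellar RNA. Members were chosen by symbol: Hoxa, Hoxb, Hoxc or Hoxd followed by a paralogue number. That gave 36 of the 22180 genes measured, 9 from the HoxA cluster, 10 from HoxB, 9 from HoxC and 8 from HoxD. Each was read from an array row with 1 gene symbol in the platform annotation. Hoxb5 was the 1 member with a second such row, and its row of higher mean was used.

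Hox genes encode homeodomain transcription factors that give cells along the body axis their position. Their order along each cluster follows the order of their anterior limits, so low paralogue numbers are expressed farthest forward in the hindbrain and high numbers in the spinal cord of the trunk and tail. The cerebellum forms from rhombomere 1, the hindbrain segment that lies in front of every Hox territory. Hoxa2 reaches farthest forward of all Hox genes, Hoxb1 marks rhombomere 4, Hoxa5 belongs to the caudal hindbrain and neck, and Hoxb9 to the trunk spinal cord. Slc6a4, the serotonin transporter, marks serotonin neurons of the raphe, which lie in the brainstem and not in the cerebellum. Those of the rostral raphe arise near the cerebellum, and those of the caudal raphe farther back.

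Hoxa2 and Hoxb1 were the members of widest spread between libraries whose promoter was in the RefSeq table, which held 20 of the 36 members. The 250 bases before each gene's start are printed 5′ to 3′ on the strand of the gene, from build GRCm38.p6. Hoxa2 lies at chr6:52164832-52165081 on the minus strand and Hoxb1 at chr11:96365508-96365757 on the plus strand. Capitals mark the letters of a PBX-HOX motif, TGATNNAT on either strand. Counting back from base -1 at the gene's start, it begins at base -162 in Hoxb1, read on the strand shown, and at base -111 in Hoxa2, read on the opposite strand.
Hoxa2: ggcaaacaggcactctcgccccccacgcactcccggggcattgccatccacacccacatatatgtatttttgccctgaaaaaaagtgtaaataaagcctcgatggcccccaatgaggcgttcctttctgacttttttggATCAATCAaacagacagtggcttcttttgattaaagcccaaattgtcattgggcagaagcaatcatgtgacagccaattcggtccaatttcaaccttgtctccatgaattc
Hoxb1: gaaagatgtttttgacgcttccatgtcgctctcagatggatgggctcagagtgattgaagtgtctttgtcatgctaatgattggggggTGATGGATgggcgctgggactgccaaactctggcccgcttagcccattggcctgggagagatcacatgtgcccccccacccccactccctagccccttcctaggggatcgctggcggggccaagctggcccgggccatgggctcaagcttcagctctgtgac

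The 20 Hox genes had 22 promoters. The motif was found in 4 of the 22, those of Hoxa2, Hoxb1, Hoxb8 and Hoxd11, against 7.68% of all 32851 promoters of that length. The retinoic acid receptor half-site AGGTCA stood in 5 of the 22 and in 14.0% of all promoters. The TCF/LEF core CTTTGA stood in 3 of the 22 and in 13.8% of all. These matches describe letters in these windows only.

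The HoxB and HoxC clusters also hold genes for miR-196a, printed here because the HoxB copy lies in the same cluster as Hoxb9, a member of wide spread. Mature sequences are from RefSeq, with the seed, bases 2 to 8, in capitals. The 5p product is the same from Mir196a-1 and Mir196a-2, and the 3p products differ in their seeds.
mmu-miR-196a-5p: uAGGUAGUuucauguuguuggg
mmu-miR-196a-1-3p: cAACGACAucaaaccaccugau
mmu-miR-196a-2-3p: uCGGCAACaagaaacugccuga

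The study compared 3 groups of 5 C57BL/6 libraries, each library from the cerebella of 1 replicate. Cells were dissociated, and progenitors of granule neurons were enriched on a density gradient before RNA was taken. In the Gsk-3 double knockout (DKO), both kinase isoforms, Gsk-3 alpha and Gsk-3 beta, were lost from those progenitors. In the Math1-Cre control, described as Gska+-, GskBff, Cre driven by Math1 (Atoh1), a gene of granule neuron progenitors, deleted Gsk-3 beta only. The no-Cre control carried Gska+- and GskBff without Cre, and for no-Cre 5 the description omits the Gsk3b genotype. All controls thus carried 1 altered Gsk3a allele, also without Cre, so loss of Gsk-3 alpha need not be confined to granule neuron progenitors. The pups' age is given as postnatal day 1 in 1 label and day 2 in another. Every RNA had an integrity number of at least 7.5. No label says whether replicates came from separate litters, and any p-value given reflects no more than their spread.

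A row shared by Gsk3a and 9130221H12Rik went against the label of 4 libraries. It lay at 7.89 to 8.27 in DKO 2, 4 and 5 and also in the libraries labelled Math1-Cre 1 and Math1-Cre 2. It lay at 9.37 to 9.59 in the remaining 10, among them the libraries labelled DKO 1 and DKO 3. No library was moved. Comparisons are given over 15 libraries and again over the 11 left without those 4. Cerebellar markers were present: Atoh1, Pax6, Zic1 and Barhl1, transcription factor genes of the granule lineage, stood above background in all 15 libraries. So did Zic2, Mfap4, Nhlh1, Cbln1 and Neurod2 of the same gene list, while Neurod1, its last member, was above background in 9. Background was taken in each library as the 95th percentile of its 1394 olfactory and vomeronasal receptor genes, which ran from 4.65 to 5.58. Receptor medians were 3.97 to 4.11 in the libraries labelled DKO 3, DKO 4, DKO 5 and no-Cre 4, whose arrays had the narrowest spread, and 3.50 to 3.70 in the others.

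Nearly all Hox genes lay at background in every library. On the log2 scale, 34 of the 36 members were never above the receptor 95th percentile. Hoxa2 was above it in 7 libraries and Hoxb9 in 1. In bulk RNA, more cells that express a Hox gene and more RNA per cell cannot be told apart. Spans are given by paralogue number as a description, with no test between classes. Of the 11 members with paralogue numbers 2 to 5, 5 spanned more than 1 log2 unit between their lowest and highest library, with a median span of 0.93. That share, 45.5%, was close to the 44.3% of receptor genes, whose median span was 0.95. None of the 8 members of paralogues 6 to 8 did, and 1 of the 15 members of paralogues 9 to 13 did, with a median span of 0.36. The widest spans were those of Hoxa2 (3.48) and Hoxb9 (2.43). Hoxb1 spanned 1.81 and Hoxd1 0.33. Over all members 19.4% spanned more than 1 log2 unit, against 17.4% of all genes. The share of the whole family was thus close to that of all genes. Levels of different rows are not ranked against each other, because each row has its own probes.

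**Figure D1:**
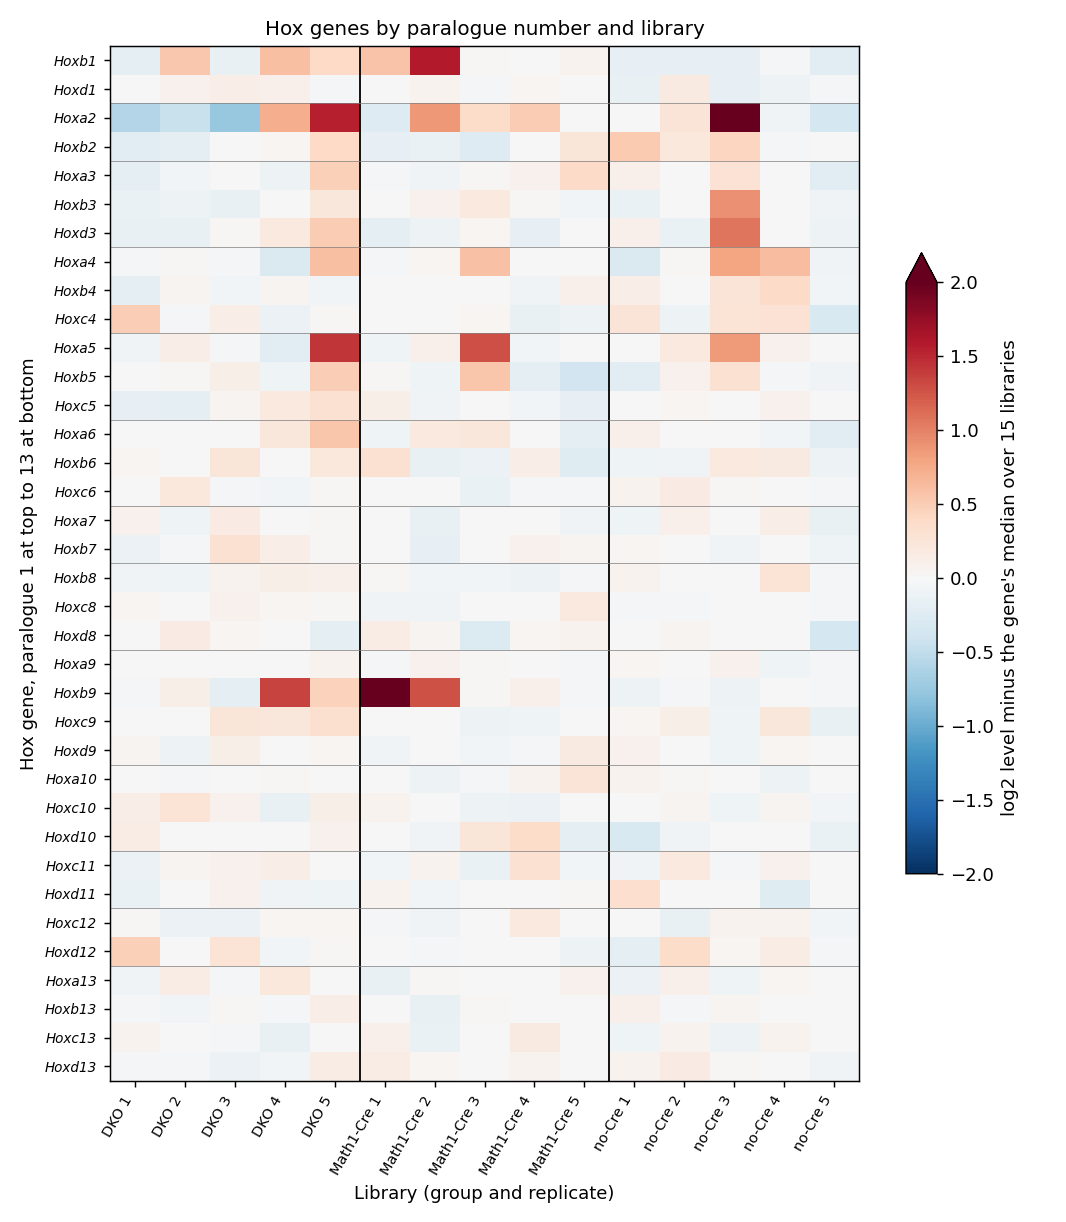
Level of each of the 36 Hox genes in each library, as log2 level minus the gene's own median over 15 libraries (colour), with paralogue 1 at the top and 13 at the bottom and the DKO, Math1-Cre and no-Cre libraries from left to right. Most cells are near 0. Hoxb1 and Hoxb9 stand out in DKO 4 and in the libraries labelled Math1-Cre 1 and Math1-Cre 2, and Hoxa2, Hoxb3, Hoxd3, Hoxa4 and Hoxa5 in no-Cre 3.

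Of the paralogue 1 genes, Hoxb1 lay at 2.76, 3.50, 2.81, 3.56 and 3.35 in DKO 1 to 5, at 3.53, 4.54, 2.98, 2.96 and 3.04 in Math1-Cre 1 to 5, and at 2.79, 2.79, 2.80, 2.93 and 2.73 in no-Cre 1 to 5. The 5 libraries with the low Gsk3a row held its 5 highest values, 3.35 to 4.54, and the remaining 10 lay at 2.73 to 3.04. The share of all genes that separate over these libraries was not counted, so this only describes the values. Hoxb1 lay above the receptor median in 1 library, the one labelled Math1-Cre 2. Hoxd1 stayed between 2.87 and 3.20 in all libraries.

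Hoxa2, which patterns the second pharyngeal arch and the rhombomeres behind the cerebellum, was the member most often above background. Its level was 4.08, 4.23, 3.91, 5.39 and 6.22 in DKO 1 to 5, 4.40, 5.53, 5.04, 5.18 and 4.66 in Math1-Cre 1 to 5, and 4.66, 4.93, 7.39, 4.59 and 4.31 in no-Cre 1 to 5. The 7 libraries above background came from all 3 groups: DKO 4 and 5, Math1-Cre 3 and 4, the library labelled Math1-Cre 2, and no-Cre 2 and 3. The groups overlapped over most of their ranges, and no-Cre 3 stood highest.

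The paralogue 3 genes Hoxb3 and Hoxd3, which pattern the hindbrain behind rhombomere 4, were high in that same library. Hoxb3 lay at 3.36, 3.39, 3.35, 3.49 and 3.72 in DKO 1 to 5, at 3.49, 3.57, 3.68, 3.52 and 3.43 in Math1-Cre 1 to 5, and at 3.35, 3.49, 4.41, 3.49 and 3.42 in no-Cre 1 to 5. Hoxd3 lay at 3.09, 3.09, 3.25, 3.43 and 3.73 in DKO 1 to 5, at 3.06, 3.13, 3.27, 3.06 and 3.23 in Math1-Cre 1 to 5, and at 3.33, 3.10, 4.30, 3.25 and 3.13 in no-Cre 1 to 5. For both, DKO 5 was second. Hoxa3 ran from 3.33 to 4.02, with DKO 5 highest, and Hoxb2, a gene of rhombomeres behind the cerebellum, from 2.98 to 3.76, with no-Cre 1 highest.

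Of the paralogue 4 and 5 genes, which belong to the caudal hindbrain and neck, Hoxa4, Hoxa5 and Hoxb5 were high in 3 libraries, 1 from each group. Hoxa5 lay at 3.31, 3.52, 3.34, 3.18 and 4.82 in DKO 1 to 5, at 3.30, 3.49, 4.67, 3.32 and 3.39 in Math1-Cre 1 to 5, and at 3.38, 3.58, 4.23, 3.47 and 3.38 in no-Cre 1 to 5. Apart from DKO 5, Math1-Cre 3 and no-Cre 3, every library thus lay between 3.18 and 3.58. Hoxa4 lay at 3.12, 3.18, 3.13, 2.87 and 3.76 in DKO 1 to 5, at 3.14, 3.20, 3.75, 3.15 and 3.16 in Math1-Cre 1 to 5, and at 2.88, 3.19, 3.95, 3.78 and 3.09 in no-Cre 1 to 5. Here no-Cre 4 joined the same 3 libraries, and both no-Cre 4 and DKO 5 were arrays of narrow spread. No library had Hoxa4, Hoxa5 or Hoxb5 above background. Hoxb5 reached 4.43, 4.50 and 4.26 in DKO 5, Math1-Cre 3 and no-Cre 3, and lay between 3.56 and 4.07 in the others. Its second row, at 3.05 to 3.52, varied less. The other paralogue 4 and 5 genes did not share this pattern. Hoxb4 spanned 0.56 and was highest in no-Cre 4, Hoxc4 spanned 0.79 and was highest in the library labelled DKO 1, and Hoxc5 spanned 0.49 and was highest in DKO 5.

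**Figure D2:**
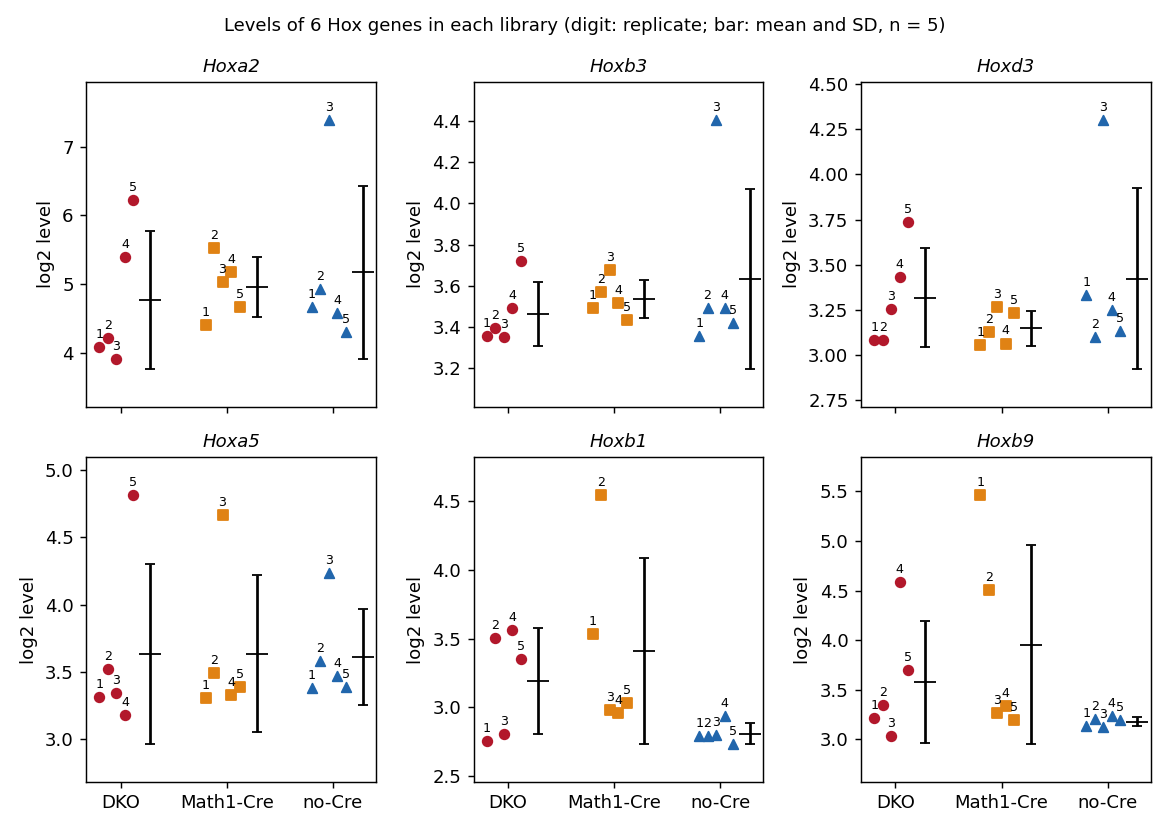
Log2 levels of 6 Hox genes by group, DKO, Math1-Cre and no-Cre from left to right, with 1 point per library, its replicate number above it, and the mean with SD (n = 5) as a bar; each panel has its own axis. In Hoxa5 the library that stands apart differs by group: DKO 5 at 4.82, Math1-Cre 3 at 4.67 and no-Cre 3 at 4.23. In Hoxb1 and Hoxb9 no no-Cre library stands apart.

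Among paralogues 6 to 13, genes of the trunk and tail, 1 of 23 members varied by more than 1 log2 unit. Hoxb9 lay at 3.22, 3.35, 3.04, 4.58 and 3.70 in DKO 1 to 5, at 5.46, 4.50, 3.26, 3.34 and 3.20 in Math1-Cre 1 to 5, and at 3.13, 3.21, 3.13, 3.24 and 3.19 in no-Cre 1 to 5. As for Hoxb1, the 5 libraries with the low Gsk3a row held its 5 highest values, though DKO 2 at 3.350 exceeded Math1-Cre 4 at 3.339 by very little. Here too, the share of all genes that separate in this way was not counted. Hoxb9 was above background in the library labelled Math1-Cre 1 only. Its cluster neighbours Hoxb6, Hoxb7, Hoxb8 and Hoxb13 spanned 0.54, 0.47, 0.38 and 0.29. Hoxa6, at 3.31 to 4.08, and Hoxd10, at 3.30 to 3.97, were the members of the rest with the widest spans. The narrowest was Hoxa9, at 2.69 to 2.86.

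Mir196a-1 lay at 4.39, 4.63, 4.82, 5.37 and 4.98 in DKO 1 to 5, at 5.15, 5.11, 4.61, 4.84 and 4.43 in Math1-Cre 1 to 5, and at 4.50, 4.70, 4.47, 4.86 and 4.53 in no-Cre 1 to 5. Its 4 highest values were in DKO 4, DKO 5 and the libraries labelled Math1-Cre 1 and Math1-Cre 2, while DKO 2 lay within the range of the rest. It was above background in 3 libraries, Math1-Cre 4 and those labelled Math1-Cre 1 and Math1-Cre 2. Such a row cannot tell primary transcript from precursor or mature miRNA. Mir196a-2 in the HoxC cluster, which yields the same 5p sequence, ranged from 3.53 to 4.04 and was never above background.

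**Figure D3:**
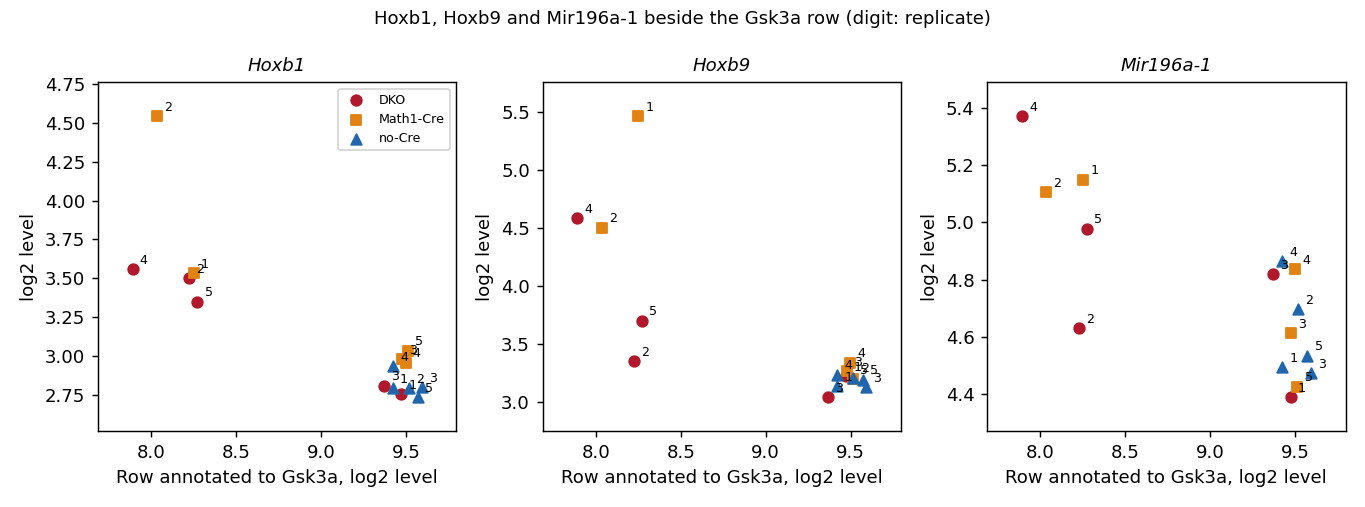
Log2 levels of Hoxb1, Hoxb9 and Mir196a-1 (vertical axes) against the level of the row annotated to Gsk3a (horizontal axis) in each of the 15 libraries, coloured by labelled group, with replicate numbers. The libraries at 7.89 to 8.27 on the horizontal axis, DKO 2, 4 and 5 with those labelled Math1-Cre 1 and 2, hold the 5 highest Hoxb1 values. The share of all genes with such a separation was not counted.

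Because the variation lay in single libraries, each was described by the members at least 0.5 log2 above their own median over the 15. In DKO 5 there were 5, Hoxa2, Hoxd3, Hoxa4, Hoxa5 and Hoxa6, on an array where 5.55% of all genes and 34.4% of receptor genes were that high. With quantile normalization they were 2, Hoxa2 and Hoxa5. Math1-Cre 3 had Hoxa4, Hoxa5 and Hoxb5 (1.08% of all genes), without Hoxa2. In no-Cre 3 there were again 5, Hoxa2, Hoxb3, Hoxd3, Hoxa4 and Hoxa5, all of paralogues 2 to 5, or 13.9% of the members, against 1.61% of all genes in that library and 0.215% of the receptor genes. Hoxb1, Hoxa2 and Hoxb9 were the 3 in DKO 4 (4.47%) and in the library labelled Math1-Cre 2 (1.62%). Of receptor genes, 30.8% were that high in DKO 4 and 0.574% in the library labelled Math1-Cre 2. The library labelled Math1-Cre 1 had Hoxb1 and Hoxb9 (1.45%), and DKO 2 had Hoxb1 (2.43%). Math1-Cre 4 (Hoxa2, 1.42%), no-Cre 1 (Hoxb2, 2.15%) and no-Cre 4 (Hoxa4, 5.12%) had 1 each. In no-Cre 4, 39.2% of receptor genes were that high. The libraries labelled DKO 1 (1.88%) and DKO 3 (6.19%), Math1-Cre 5 (3.38%), no-Cre 2 (1.02%) and no-Cre 5 (0.739%) had 0.

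Members that were high in the same libraries also correlated over the 15 libraries, given here as a description. Hoxa2 and Hoxb3 had a Pearson r of 0.90, which was 0.72 over the 13 libraries without DKO 5 and no-Cre 3. Hoxb3 and Hoxd3 had 0.88, which was 0.019 without those libraries and so rested on them. Hoxa5 correlated with Hoxb5 at 0.86, and at 0.62 without DKO 5 and Math1-Cre 3. Hoxb1 and Hoxb9 had 0.72, and 0.70 without DKO 4 and the library labelled Math1-Cre 2. The libraries left out were those farthest from the median of the first-named member only. For Hoxb1 and Hoxb9, the library labelled Math1-Cre 1, highest in Hoxb9 at 5.46, thus stayed in. For Hoxa5 and Hoxb5, no-Cre 3, high in both, stayed in. These values therefore do not show that the correlation is free of single libraries.

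Slc6a4, the serotonin transporter of brainstem serotonin neurons, was used to order the libraries. Its level was 5.01, 7.16, 5.49, 4.52 and 5.28 in DKO 1 to 5, 7.08, 6.77, 8.05, 8.21 and 3.66 in Math1-Cre 1 to 5, and 5.73, 3.42, 8.56, 5.89 and 7.08 in no-Cre 1 to 5. Thus 7 libraries lay above 6.5 and 8 below, and both sides held libraries of every group. Slc6a4 was above background in 10 libraries, and not in DKO 4, DKO 5, the library labelled DKO 3, Math1-Cre 5 or no-Cre 2. Dbh, dopamine beta-hydroxylase of noradrenaline neurons, which also lie in the brainstem, ordered the libraries differently. It lay at 6.92, 6.93, 4.36, 7.25 and 7.81 in DKO 1 to 5, at 8.09, 7.24, 7.92, 7.44 and 4.53 in Math1-Cre 1 to 5, and at 4.43, 4.78, 7.82, 3.71 and 7.28 in no-Cre 1 to 5. DKO 4, DKO 5 and the library labelled DKO 1 were thus low in Slc6a4 and high in Dbh, and the split at 6.5 covers Slc6a4 alone. Group means of Slc6a4 were 5.49 ± 1.00 in DKO, 6.75 ± 1.83 in the Math1-Cre control and 6.13 ± 1.90 in the no-Cre control (SD, n = 5 each). In two-sided exact permutation tests, p was 0.524 for DKO against no-Cre, 0.214 for DKO against Math1-Cre and 0.603 for Math1-Cre against no-Cre, each 0.603 after Benjamini-Hochberg adjustment over the 3.

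No Hox gene separated the libraries by this split. Hoxa2 ran from 4.23 to 7.39 with a median of 5.04 in the 7 libraries above 6.5, and from 3.91 to 6.22 with a median of 4.66 in the 8 below. Hoxa5 ran from 3.30 to 4.67 above and from 3.18 to 4.82 below, with medians of 3.49 and 3.38. The libraries highest in Hoxa2, DKO 5 and no-Cre 3, lay on opposite sides, at 5.28 and 8.56 for Slc6a4. Both were high in noradrenaline markers, with a mean over 4 such genes of 7.30 in DKO 5 and 7.71 in no-Cre 3, against a range of 5.27 to 7.79 over all libraries. Tfap2b, 1 of the 4, stayed at 9.06 to 9.53 in all libraries, so the mean varied mainly with Dbh, Th and Slc6a2. Libraries low in Hoxa2 reached similar means. The library labelled Math1-Cre 1 was at 7.71 with Hoxa2 at 4.40, and no-Cre 5 at 7.25 with Hoxa2 at 4.31. Math1-Cre 3, highest at 7.79, had Hoxa2 at 5.04. The ranges above and below 6.5 were separate for 0 of the 36 members, against 0.55% of all genes other than Slc6a4.

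As a test, each gene's level was fitted with limma on the Slc6a4 level within groups. No Hox gene passed a Benjamini-Hochberg adjusted p of 0.05 (0 of 36, and 0 at an unadjusted p under 0.05), against 0.252% of all genes, 55 of 56 of them with a positive slope. Hoxa2 had a slope of 0.17 ± 0.15 log2 units per unit of Slc6a4 (SE, limma adjusted p = 0.883), Hoxa5 0.10 ± 0.09 (0.873) and Hoxb3 0.08 ± 0.04 (0.701). The median slope was -0.003 for the members and -0.002 for all genes. Of 9 other serotonin neuron genes, 4 rose with Slc6a4: Tph2, the tryptophan hydroxylase of these neurons, by 0.84 ± 0.07 (limma adjusted p = 4.4e-05), the monoamine transporter gene Slc18a2 by 0.61 ± 0.10 (0.0163), Ddc, which decarboxylates the serotonin precursor, by 0.38 ± 0.05 (0.00544), and Gata3, a transcription factor gene of serotonin neurons, by 0.23 ± 0.04 (0.0462). None of 4 noradrenaline neuron genes passed, with Dbh at 0.61 ± 0.19 (0.311). None of 8 cranial motor neuron genes passed, with Slc18a3, the vesicular acetylcholine transporter gene, at 0.30 ± 0.07 (0.112). Tph2 levels ran from 3.13 to 7.37.

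**Figure D4:**
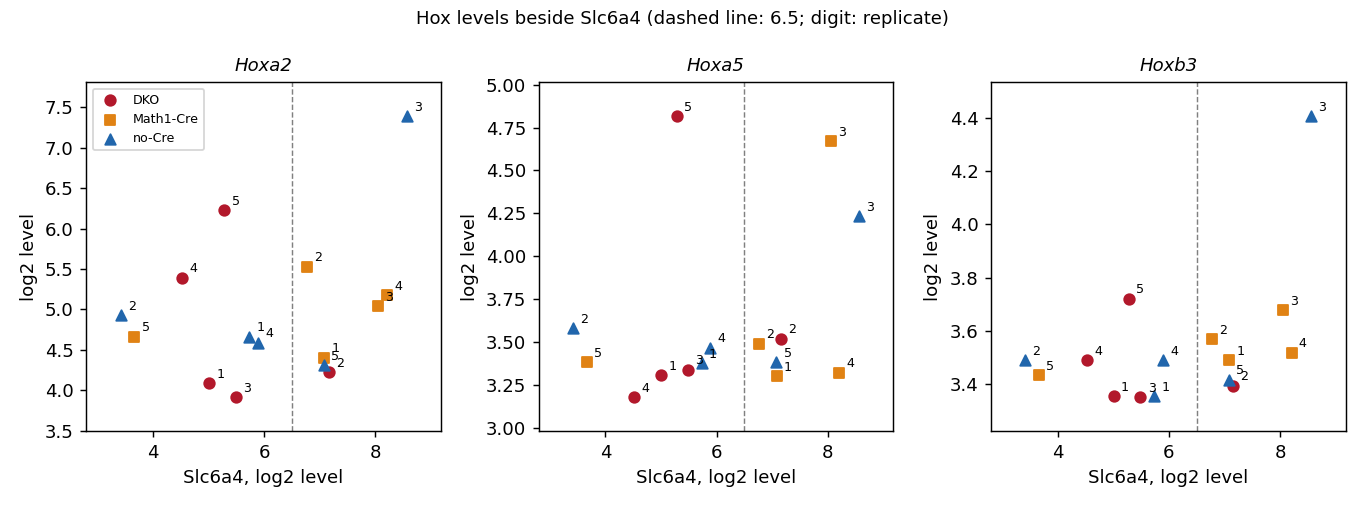
Log2 levels of Hoxa2, Hoxa5 and Hoxb3 (vertical axes) against Slc6a4 (horizontal axis) in each library, coloured by labelled group, with replicate numbers; the dashed line is at 6.5. DKO 5 is high in Hoxa2 and Hoxa5 with Slc6a4 at 5.28, Math1-Cre 4 has Slc6a4 at 8.21 with Hoxa5 at 3.32, and no-Cre 3 is high on both axes.

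By title group, DKO was compared with the no-Cre control, DKO with the Math1-Cre control, and the Math1-Cre with the no-Cre control, which separate deletion of both kinases with Cre, deletion of Gsk-3 alpha beyond Gsk-3 beta, and Cre with deletion of Gsk-3 beta. Over all 15 libraries, 0 of 36 members passed an adjusted p of 0.05 in limma for DKO against no-Cre (background 0.0721% of all genes), 0 for DKO against Math1-Cre (0.55%) and 0 for Math1-Cre against no-Cre (0.0%). At an unadjusted p under 0.05 there were 1, 1 and 2 members. The comparisons share their libraries.

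For DKO minus no-Cre, fitted differences ran from -0.41 ± 0.53 for Hoxa2 to 0.40 ± 0.38 for Hoxb9 (SE), with a median of 0.014 over members and -0.016 over all genes, and 21 of 36 were positive. The lowest limma adjusted p was 0.275, for Hoxb4 at -0.18 ± 0.08. For DKO minus Math1-Cre, differences ran from -0.37 ± 0.38 for Hoxb9 to 0.20 ± 0.08 for Hoxc9, which had the lowest limma adjusted p, 0.182. The median was 0.023 over members and -0.049 over all genes. For Math1-Cre minus no-Cre, they ran from -0.29 ± 0.13 for Hoxb2 to 0.77 ± 0.38 for Hoxb9, with a median of -0.007 over members and 0.019 over all genes. Hoxb1 was at 0.60 ± 0.25 there (limma adjusted p = 1.00). Mean Hoxa2 levels were 4.77 ± 1.00 in DKO, 4.96 ± 0.44 in the Math1-Cre control and 5.18 ± 1.26 in the no-Cre control (SD, n = 5 each), so that the Hoxa2 differences lay within the spread between replicates.

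Without the 4 libraries that go against their label, Hoxb1 was higher in DKO than in both controls. It averaged 3.47 ± 0.11 over 3 DKO libraries, 2.99 ± 0.04 over 3 Math1-Cre libraries and 2.81 ± 0.07 over 5 no-Cre libraries (SD). The DKO minus no-Cre difference was 0.66 ± 0.08 (SE, limma adjusted p = 0.00184), and Hoxb1 was the 1 member called, against 1.08% of all genes, or 0.437% counted as higher. The call held in each fit that left out 1 more library, at 0.616 to 0.720. DKO minus Math1-Cre was 0.48 ± 0.09 (limma adjusted p = 0.0381), again with 1 member called against 0.541% of all genes, or 0.289% counted as higher. This second call was lost in 9 of the 11 fits without a further library, where adjusted p reached 0.163. Math1-Cre minus no-Cre was 0.18 ± 0.08 for Hoxb1, with 0 members called (0.0%).

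These libraries were left out because of the Gsk3a row, and Hoxb1 splits over the same libraries, so neither call is independent of that choice. In DKO 2, 4 and 5 Hoxb1 was at 3.35 to 3.56, below the receptor medians of those arrays. Of the 11 libraries, DKO 4, DKO 5 and no-Cre 4 were arrays of narrow spread with high receptor medians, and no Math1-Cre library was. With the array interquartile range as a covariate, the Hoxb1 call held for DKO minus no-Cre and was lost for DKO minus Math1-Cre. Of 10 granule lineage genes, 3 passed for DKO against no-Cre over the same 11 libraries. Mfap4, an extracellular matrix gene, fell by 1.52 in DKO against no-Cre (limma adjusted p = 3.7e-05), Nhlh1, a helix-loop-helix transcription factor gene, fell by 1.20 (0.000571) and Atoh1 fell by 0.80 (0.0495). Their part in the Hoxb1 result was not tested. The mean of the 10 granule lineage genes was 8.58 to 8.71 in these DKO libraries, 9.03 to 9.11 in the Math1-Cre libraries and 8.98 to 9.37 in the no-Cre libraries.

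Hoxb9 did not pass in either comparison of DKO. Over the 11 libraries it averaged 3.88 ± 0.64 in the 3 DKO libraries, 3.27 ± 0.07 in the 3 Math1-Cre libraries and 3.18 ± 0.05 in the 5 no-Cre libraries (SD). The DKO minus no-Cre difference was 0.70 ± 0.20 (limma adjusted p = 0.161) and DKO minus Math1-Cre was 0.61 ± 0.23 (0.246). Single DKO libraries decided the size: without DKO 4, the highest of the 3, DKO minus no-Cre was 0.345 (limma adjusted p = 0.290), and without DKO 2, the lowest, it was 0.963 (0.0394). DKO minus Math1-Cre was 0.260 without DKO 4 (0.459) and 0.877 without DKO 2 (0.0703). Hoxa2 was at 0.11 ± 0.62 and Hoxa5 at 0.23 ± 0.38 for DKO minus no-Cre. Mir196a-1 was at 0.38 ± 0.16 (limma adjusted p = 0.342).

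Regulators and partners of Hox genes were measured as well. Of the PBX, MEIS and PKNOX cofactor genes, which encode homeodomain proteins that bind DNA with HOX proteins, 8 of 9 had a row. None passed in any of the 3 comparisons or in the fit on Slc6a4. Pbx3 lay between 9.44 and 10.09, Meis1 between 9.83 and 10.58 and Meis2 between 9.00 and 10.05, all above background in all 15 libraries. Of 15 genes of retinoic acid signalling and CDX factors, which switch on Hox genes in the embryo, 0 passed. Cdx1, Cdx2, Cdx4, Cyp26a1 and Cyp26c1 were never above background, while Cyp26b1, which degrades retinoic acid, was above it in all 15 libraries at 8.98 to 9.72. Aldh1a3, a retinoic acid synthesis gene that was never above background, was at -0.41 ± 0.11 in DKO minus Math1-Cre (limma adjusted p = 0.0737).

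Of 5 measured genes of rhombomere patterning, 0 passed. Egr2, a gene of rhombomeres 3 and 5, was never above background. Gbx2, which marks the territory behind the midbrain, ran from 5.33 to 6.94. Of 18 Polycomb and trithorax genes, which hold Hox clusters silent or active, 0 passed. Rnf2, a ubiquitin ligase gene of Polycomb complex 1, was at -0.31 ± 0.07 in DKO minus no-Cre (limma adjusted p = 0.0686). Over the 11 libraries, none of these lists had a member that passed in the 3 comparisons either.

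Among 14 genes that flank the clusters, 0 passed. Evx2, a homeobox gene beside the Hoxd13 end of the HoxD cluster, was above background in 14 libraries and ran from 5.19 to 6.21 over the 15. None of the 8 HoxD members was above background in any. Evx1, in the same position beside HoxA, stayed between 3.26 and 3.89. Of 7 measured noncoding RNAs of the clusters 0 passed, and Hotair, Hoxaas3 and Hoxd3os1 were never above background.

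Rows annotated with several symbols gave 7 further Hox readings. The row for Hoxb3 and Hoxb2 ran from 2.83 to 3.77 and that for Hoxa3 and 5730446D14Rik from 2.86 to 3.66, both highest in no-Cre 3. The row for Mir10a and Hoxb4 ran from 3.23 to 4.44 and was highest in no-Cre 4. The remaining 4 rows spanned 0.211 to 0.604.

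No member met the rule for naming genes of like pattern, which asked for a level above background in 8 or more libraries. Genes most like Hoxa2, Hoxa5, Hoxb1 and Hoxb9 were therefore looked up after their values were seen. Over 15 libraries the gene most like Hoxa2 outside the family was Atoh7, a helix-loop-helix transcription factor gene, with a Pearson r of 0.87, which was 0.38 without DKO 5 and no-Cre 3. Next was Foxd3, a transcription factor gene of the neural crest, at 0.86, which was 0.47 without them. For Hoxa5 it was Acsm4 at 0.76, which was -0.13 without DKO 5 and Math1-Cre 3 and so rested on them. For Hoxb1 the list of 10 opened with Gm53 (0.93) and Mst1r, a receptor tyrosine kinase gene (0.90). Notum, which encodes a secreted WNT deacylase, stood at rank 8 (0.87), and the other genes of the list are not named here. Without DKO 4 and the library labelled Math1-Cre 2, r was 0.78 for Gm53, 0.88 for Mst1r and 0.95 for Notum. For Hoxb9 the list of 10 opened with the zinc transporter gene Slc30a2 (0.90), with the channel gene Hcn2 at rank 3 (0.88). The GABA receptor gene Gabra6 stood at rank 7 (0.85) and Dkk4, which encodes a secreted WNT antagonist, at rank 10 (0.83). The others of this list are not named either. Without DKO 4 and the library labelled Math1-Cre 1, r was 0.74 for Slc30a2, 0.77 for Hcn2, 0.80 for Gabra6 and 0.92 for Dkk4.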

How the data were processed

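Affymetrix Mouse Gene 2.1 ST arrays measured RNA of 15 libraries. The deposited table holds log2 expression values, made by the authors with RMA in Partek 6.6 on build mm9, per the submitters' processing notes. Their order and settings are not stated in what was used here. Values were used as deposited, from 2.11 to 13.49, and the number of arrays limits precision.

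Among 41345 rows, the platform annotation gave 23521 a single symbol, 1814 several and 16010 none. Where a gene had several single-symbol rows (1082 genes), that of highest mean was kept. By gene identifier 23328 rows matched the RefSeq table of GRCm38.p6, and 0 symbols changed.

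A limma 3.58.1 model (R 4.3.3) with 3 group means was fitted to all 22180 genes, and a second with the Slc6a4 level and the groups to 22179. Two-sided p-values were Benjamini-Hochberg adjusted across the whole table, with calls made at 0.05. The fit was tested on simulated data. Slc6a4 itself was compared by exact permutation (scipy 1.17.1). Members, gene lists and the 11-library setting were chosen with earlier results of these data known. The rule for members given in full, a level above background in 8 or more libraries, named 0. Those given in full are the members of widest span, chosen after their values were seen. Alternatives were other normalizations, filters, covariates, a replicate block and each library left out.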

Additional observations from a re-analysis of the deposited data

Results flagged for a closer look

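Within groups of 5 libraries, the gap between the highest or lowest library and its nearest neighbour was set against the group's whole range (Dixon's test, critical value 0.71). Of 114 groups over 38 genes, the Hox genes with Slc6a4 and Tph2, 13 had a library past that value. The nominal rate of the test is about 1 in 20 groups. The genes share libraries and nearly all lie at background, and the share of all genes past this value was not counted. Whether 13 is more than other genes would give was therefore not tested. Of the 13, 3 were in DKO 5, 3 in Math1-Cre 3, 4 in no-Cre 3, and 1 each in the library labelled Math1-Cre 2, Math1-Cre 5 and no-Cre 5.

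In DKO 5, Hoxa5 at 4.82, Hoxa3 at 4.02 and Hoxa9 at 2.85 stood above the other DKO libraries, and for Hoxa9 the whole group spanned 0.0839. In Math1-Cre 3, Hoxa5 at 4.67 and Hoxa4 at 3.75 stood high and Hoxd8 at 3.45 stood low. In no-Cre 3, Hoxa2 at 7.39, Hoxb3 at 4.41, Hoxd3 at 4.30 and Hoxa5 at 4.23 stood above the 4 other no-Cre libraries. Hoxd8 was also low in no-Cre 5, at 3.37. Hoxd9 was high in Math1-Cre 5, at 2.90, and Hoxb13 low in the library labelled Math1-Cre 2, at 2.91.

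Hoxa5 thus had a library that stood apart in each of the 3 groups. Slc6a4 in these libraries was 5.28 in DKO 5, 8.05 in Math1-Cre 3 and 8.56 in no-Cre 3.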

How the results depend on the processing

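Over 15 libraries, the count of Hox genes called was 0 in each of the 3 comparisons and on the Slc6a4 level, and 0 in all 15 fits without 1 library. It became 1, Hoxb1, without the 4 libraries against their label, for DKO minus no-Cre and for DKO minus Math1-Cre. The other settings left it at 0, although only 2 members were tested when genes under the 30th percentile were dropped. All genes called on Slc6a4 ran from 10 to 97 as single libraries were left out.

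Over 11 libraries, the count for DKO minus no-Cre was 1 to 2 as a further library was left out, with 2 without DKO 2, where Hoxb9 joined Hoxb1. For DKO minus Math1-Cre it was 0 to 1. It was 0 with the array interquartile range, the code cg1724 or the Slc6a4 level as a covariate, where Hoxb1 was at 0.43, 0.48 and 0.47 with limma adjusted p-values of 0.127, 0.0564 and 0.0656. The cause was not tested. Code cg1724 covers the libraries of replicate 5 in each group, DKO 5 among them. The fits that kept this call were those without DKO 5 or no-Cre 4. The difference itself stayed between 0.435 and 0.540 in all 11.

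Replicate numbers did not pair libraries: deviations of same-numbered libraries correlated from -0.30 to 0.30, with 6 of 15 pairs over 0.1, and 3 libraries correlated best with their own number. With a replicate block 0 Hox genes were called in each comparison, and all genes called went to 6 for DKO minus no-Cre, 0 for DKO minus Math1-Cre and 4 on Slc6a4.

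Of the members 0.5 log2 above their median, DKO 5 had 2 with quantile normalization and 8 with centring on the array median. At a threshold of 1 log2 there were 2 in DKO 5, 1 in DKO 4, 2 in the library labelled Math1-Cre 2, 1 in that labelled Math1-Cre 1, 1 in Math1-Cre 3, 2 in no-Cre 3 and 0 in the others. Signal near background limits every member, Hoxa2 in 8 of 15 libraries too, since differences there can be compressed.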
